A study of Drosophila melanogaster with 30 samples.

Results

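The elements described here are 92 candidate silencers whose names mark them as windows from CtBP ChIP regions of embryos, assayed in a reporter screen in Drosophila melanogaster. They were taken as every element whose name begins with E_0_12h_dCtBP, a choice that uses no measured value. In round 1 of the screen 92 of 576 listed elements carried that name, and in round 2 it was 25 of 188. All 25 were also listed in round 1, so the number of distinct CtBP elements was 92. Each is called below by its region number, so that region_4530 stands for E_0_12h_dCtBP7667.region_4530. The name records where the fragment came from, and neither the bound position nor a nearby gene is paired with it in the files used here.

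CtBP is a corepressor without a DNA-binding domain of its own. It is brought to DNA by short-range repressors of the early embryo such as Snail, Krüppel and Knirps, and it quenches activators bound close by. Snail is the repressor that keeps neuroectodermal genes off in the mesoderm, the tissue sorted here. Binding of a corepressor marks a fragment as a candidate silencer, and the reporter asks whether the fragment alone lowers expression.

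In the screen, a strong enhancer active in all tissues drives GFP, and 1 candidate fragment with its barcode is placed beside it. Males carrying inserts drawn at random from the pool were mated with twi:CD2 virgins, and mesodermal cells of their embryos were stained with an antibody to rat CD2. Embryos were collected for 2.25 h and aged for 11 h at 18 °C, then dissociated and sorted. All groups carry the reporter pool and twi:CD2, and they differ only in the gate. Round 1 gave low-GFP CD2+ cells (mesoderm with weak GFP), CD2+ cells (mesoderm) and CD2- cells (all other cells), with 6 libraries each. Round 2, with fewer listed elements, gave low-GFP CD2+ and CD2+ cells, again with 6 libraries each. The 6 libraries of a group are 6 collection days, of which days 1 to 3 make up experiment 1 and days 4 to 6 experiment 2. A library counts barcoded inserts amplified by PCR from genomic DNA, so a higher share in low-GFP cells means that cells carrying that insert were recovered more often in the low-GFP gate. Values are given as CPM, counts per 1e+06 of the library total multiplied by the library's TMM factor, a scaling computed over all elements. A share of counts, given in percent, is instead of the plain library total, so the CPM and the share of an element differ where the TMM factor is far from 1.

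Libraries held 3399506 to 5934098 read 1 counts in round 1 and 2928510 to 5488936 in round 2. A count of 3 corresponded to 0.399 to 1.72 CPM in round 1 and 0.470 to 1.13 CPM in round 2. These floors are on the same TMM scale and cover counting error only, since the reads come from PCR and carry no molecular identifiers. Days of one group differed by far more than counting error. Over the 75 pairs of libraries of the same group, log2 counts of all listed elements correlated at r = 0.632 to 0.906. The chi-square of the counts of a pair, per degree of freedom, was 3101 or more. The low-GFP library of day 4 in round 1 stood apart, with a TMM scaling factor of 0.360 against 0.668 to 1.31 in the other 17 libraries, and 24.0% of its counts came from 1 element. Results that rest on it are given without it as well. The spread between days, as a biological coefficient of variation, came to 1.46 (round 1) and 1.10 (round 2), and it limits what 6 days can show.

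Recovery of the CtBP elements was uneven. In round 1, 30 of the 92 were counted in every library, 41 in some and 21 in none, which is 22.8% absent against 27.8% of all 576 elements. In round 2, 18 of the 25 were counted in every library, 7 in some and 0 in none. Of the 21 that were absent from round 1, 16 were listed and counted in round 2, so that 87 of 92 were recovered at least once and 5 never. The filter on low counts left 63 CtBP elements for testing in round 1 and 21 in round 2, together 79 distinct ones.

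Of the 29 untested in round 1, 8 had counts in some library. These are region_1752, region_3006, region_3325, region_3346, region_3602, region_3852, region_3954 and region_909. Region_3325 had the largest count among them, 10002 in 1 library, with low-GFP CPM of 0, 0.352 and 2999 (lowest, median, highest), CD2+ CPM of 0, 0.358 and 797, and CD2- CPM of 0, 0.0902 and 1980. It was thus frequent on single days and near 0 on most. Another 7 were tested in round 1 but would have failed the same filter on the 12 control libraries alone: region_1767, region_2057, region_2659, region_2827, region_3799, region_4460 and region_4530. For an element that passes only through the low-GFP libraries, such as region_4530, a difference from the controls follows from passing, and its p is given as a description. In round 2 the 4 untested were region_2182, region_3623, region_4154 and region_4575, with at most 2323 counts in a library, and region_3049, region_486, region_4944 and region_55 were tested there but would have failed on the 6 CD2+ libraries alone.

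The tested elements spanned a wide range of abundance before any selection on GFP. In the CD2+ libraries of round 1 their mean CPM ran from 0.599 to 9135 with a median of 1110, and 34 of 63 were above 1000. In round 2 it ran from 342 to 18162 with a median of 3079. Abundance showed little relation to the base composition of the 12-base barcode (25% to 75% GC, median 50%): across elements Spearman's rho with mean CD2+ CPM was -0.199 over the 63 of round 1 and 0.126 over the 21 of round 2. The same coefficient with the log2 fold change between low-GFP and control cells was -0.065 and 0.159. These are descriptions across elements that share libraries, with no test.

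As a class, CtBP elements had a lower median share of counts in low-GFP than in control libraries, and the groups overlapped. In round 1 the share of all counts was 7.82% to 13.7% in low-GFP cells (median 10.5%; mean 10.5% ± 2.39, SD, n = 6). It was 10.9% to 13.5% in CD2+ cells (median 12.5%; 12.5% ± 0.875, n = 6) and 11.3% to 14.3% in CD2- cells (median 12.3%; 12.6% ± 1.13, n = 6). The low-GFP share was above that of the CD2+ library of the same day on 2 of 6 days and above that of the CD2- library on 1 of 6. In round 2 the share was 6.42% to 11.2% in low-GFP cells (median 8.37%; 8.66% ± 1.69, n = 6) and 9.03% to 13.7% in CD2+ cells (median 10.5%; 11.0% ± 1.74, n = 6), and low-GFP exceeded CD2+ on 0 of 6 days.

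The composition of that share differed more than its size. The most abundant CtBP element made up 21.3% to 51.4% of the CtBP counts of a low-GFP library in round 1, against 9.26% to 14.8% in CD2+ and 8.00% to 12.7% in CD2- libraries. It was region_707 in 5 of the 6 low-GFP libraries and region_4196 on day 5. Region_707 alone took 1.61%, 4.70% and 5.66% of all counts in low-GFP libraries (lowest, median, highest), 0.0523%, 0.283% and 0.775% in CD2+ libraries, and 0.000348%, 0.343% and 0.629% in CD2- libraries. Without region_707 the other CtBP elements held 6.56% ± 1.34 of the counts in low-GFP cells, 12.1% ± 0.877 in CD2+ cells and 12.2% ± 1.15 in CD2- cells (SD, n = 6 each). Region_707 was singled out here for its rise, so this lower remainder is a description. Shares are tied to one another within a library, so a rise of some elements lowers the share of all the others.

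The first comparison asked which inserts were recovered more or less often from mesodermal cells with weak GFP than from both control sorts. Counts of all elements were fitted with edgeR's quasi-likelihood test, and an element was called at a Benjamini-Hochberg adjusted p under 0.05 over all elements tested. Of the 63 tested CtBP elements, 7 rose in low-GFP cells (11.1%), 5 fell (7.94%) and 51 did not pass. Among the 7 were region_4530 and region_2659, which would have failed the filter on control libraries alone. The background over all 358 tested elements was 15.9% higher and 10.1% lower, so the CtBP counts were not above it. The median log2 fold change of the 63 was -1.13 (interquartile range -2.02 to 0.28, range -3.70 to 8.72) against -0.61 over all 358, and 20 lay above 0 and 43 below. Among 32 tested Groucho-region elements, named for another corepressor, 5 rose and 2 fell with a median of -0.68. Among 6 tested elements whose names hold CtBPoverlap, a term the labels do not explain, 2 rose and 1 fell with a median of -0.43. Of 8 tested E. coli control fragments 1 rose and 0 fell with a median of -2.04. Differences between these classes were not tested. Without the low-GFP library of day 4 the CtBP counts were 5 higher and 2 lower of 65 tested, and the shares of all 369 tested elements fell as well, to 13.6% higher and 7.59% lower.

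The level of these fold changes shifts with the scaling. The median of the CtBP elements was -1.13 with TMM, -0.66 with DESeq2 size factors, -1.52 with total counts and -0.15 when the E. coli fragments set the scale. The median of all elements moved with it, to -0.61, -0.29, -1.23 and 0.16. Relative to that background the CtBP median was lower by each of the 4 scalings (differences of -0.52, -0.37, -0.28 and -0.32). A scaling acts on all elements of a library alike, so these 4 differences are not separate evidence. Calls in the higher direction numbered 7, 7, 5 and 7, while calls in the lower direction numbered 5, 1, 8 and 0. Over all 358 elements the shares moved the same way, to 15.9%, 17.6%, 13.1% and 17.9% higher and 10.1%, 6.42%, 15.6% and 1.12% lower.

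Region_4530 had the largest fitted log2 fold change of the 63. Its CPM in low-GFP cells was 174, 298 and 511 (lowest, median, highest), against 0, 0.493 and 2.45 in CD2+ cells and 0.219, 0.901 and 2.13 in CD2- cells. Every low-GFP library lay above every control library, and the 12 control libraries held 58 counts of it in all, 7 of them with at most 3. Its log2 fold change was 8.72 (standard error 0.96; edgeR's adjusted p = 2.36e-06), and low-GFP was higher on 6 of 6 days. Because it passed the filter only through the low-GFP libraries, the difference follows from passing, and the size of the fold rests on few control counts. In the fit with no filter on low counts it was 8.69 (edgeR adjusted p = 8.01e-06). Its mean abundance ranked 257 of the 358 tested elements in low-GFP cells and 355 in CD2+ cells, so that it was a rare insert even where it was enriched.

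Region_707 combined a rise with high abundance. It measured 15680, 58917 and 131190 CPM in low-GFP cells, against 544, 2565 and 5987 in CD2+ cells and 3.28, 2702 and 5361 in CD2- cells. No low-GFP library reached down to a control library. The log2 fold change was 4.67 (standard error 0.72; edgeR's adjusted p = 7.83e-05), higher on 6 of 6 days. By mean CPM it ranked 2 among all 358 tested elements in low-GFP cells and 102 in CD2+ cells.

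Region_2659 and region_1692 were scarce in the controls. Region_2659 measured 0, 44.8 and 658 CPM in low-GFP cells, 0, 0.361 and 1.82 in CD2+ cells and 0, 0.200 and 4.56 in CD2- cells. Low-GFP was higher on 5 days and at 0 on the other, where it overlapped the controls. On the log2 scale the fold change was 6.85 (standard error 1.42; edgeR's adjusted p = 0.00125), and 6.81 with no filter on low counts (edgeR adjusted p = 0.0021). This element too would have failed the filter on control libraries alone, and it passed mainly through the low-GFP libraries. A difference is thus mainly built in and its p is a description. Its 12 control libraries held 40 counts in all. Region_1692 measured 72.0, 361 and 970 CPM in low-GFP cells, 0, 7.86 and 28.3 in CD2+ cells and 0.400, 6.44 and 116 in CD2- cells. It was higher on 6 of 6 days, with a log2 fold change of 5.07 (standard error 1.11; edgeR's adjusted p = 0.00192), and the groups overlapped only through 1 CD2- library. Region_707 and region_1692 kept their call when any single day or library was left out and under each other setting tried on all 6 days. The same held for region_4530 and region_2659, whose p is a description because both would have failed the filter on control libraries alone.

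The other 3 that rose did not hold to that degree. Region_3084 measured 77.2, 303 and 4171 CPM in low-GFP cells, 62.1, 85.6 and 284 in CD2+ cells and 0.142, 49.0 and 146 in CD2- cells. Low-GFP was higher on 6 of 6 days although the groups overlapped. Its log2 fold change was 3.66 (standard error 1.04; edgeR's adjusted p = 0.0127), and with collection day as a block it was 2.93 (edgeR adjusted p = 0.0723). Leaving out day 1 or day 5, or only the low-GFP library of either day, also ended the call (edgeR's adjusted p up to 0.136).

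Region_4196 was among the 3 most abundant CtBP elements of the CD2+ libraries. It measured 2301, 18147 and 74396 CPM in low-GFP cells, 2068, 7919 and 9481 in CD2+ cells and 287, 4560 and 10618 in CD2- cells. Low-GFP was higher on 5 of 6 days, and the lowest low-GFP library lay within both control groups. The log2 fold change was 2.03 (standard error 0.58; edgeR's adjusted p = 0.0139). Leaving out the low-GFP library of day 4 ended the call (edgeR's adjusted p = 0.101), as did leaving out day 2 or day 4 (up to 0.146). It also ended with total counts as the scale and with collection day as a block (1.87, edgeR adjusted p = 0.0725).

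Region_3049 measured 10451, 19298 and 22636 CPM in low-GFP cells, 1461, 5110 and 7738 in CD2+ cells and 2.02, 4280 and 9220 in CD2- cells. The groups did not overlap, and the ratio of highest to lowest low-GFP value was the smallest among the 7. The log2 fold change was 2.03 (standard error 0.71; edgeR's adjusted p = 0.0423). The adjusted p crossed the threshold when any of days 1 to 5 was left out (edgeR, up to 0.121), and with total counts, read 2 or both reads summed. With collection day as a block it was 2.50 (edgeR adjusted p = 0.0229).

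In all, every low-GFP library exceeded every control library for 3 CtBP elements of round 1, region_3049, region_4530 and region_707 (4.76% of 63). Over all elements this was 9.5%. The reverse, every low-GFP library below every control library, held for 0 CtBP elements and for 1.96% of all elements.

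The 5 elements that fell were mostly abundant in the controls. Region_3484 measured 22.2, 181 and 872 CPM in low-GFP cells, against 102, 1661 and 6159 in CD2+ cells and 696, 1553 and 3900 in CD2- cells. It was lower on 6 of 6 days, with overlapping groups, and the log2 fold change was -3.01 (standard error 0.86; edgeR's adjusted p = 0.0132). The call was kept without any single library and lost without day 3 (edgeR adjusted p = 0.0612).

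Region_3509 measured 58.4, 428 and 1430 CPM in low-GFP cells, 439, 2691 and 6795 in CD2+ cells and 549, 1742 and 4893 in CD2- cells. It was lower on 6 of 6 days (log2 fold change -2.28, standard error 0.73; edgeR's adjusted p = 0.0248). Region_2952, another of the 3 most abundant, measured 867, 1805 and 4803 CPM in low-GFP cells, 2958, 6276 and 11792 in CD2+ cells and 2156, 6472 and 9634 in CD2- cells. It was lower on 6 of 6 days too (log2 fold change -1.45, standard error 0.46; edgeR's adjusted p = 0.0243). Low-GFP and control values of both overlapped.

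Region_2748 measured 25.2, 1050 and 2581 CPM in low-GFP cells, 79.6, 7123 and 10142 in CD2+ cells and 472, 7091 and 10253 in CD2- cells. The lowest value of all 3 groups came from day 4, where the groups overlapped, and low-GFP was lower on 6 of 6 days (log2 fold change -2.56, standard error 0.89; edgeR's adjusted p = 0.0401). With collection day as a block the value was -2.76 (edgeR adjusted p = 0.00115). Region_3202 measured 5.73, 347 and 890 CPM in low-GFP cells, 5.02, 1654 and 4332 in CD2+ cells and 899, 3688 and 7067 in CD2- cells. It was lower on 5 of 6 days (log2 fold change -2.89, standard error 1.04; edgeR's adjusted p = 0.0480), and with the block the adjusted p was 0.0633. Region_3509 lost its call without day 2, 3 or 5, region_2952 without day 1, 2 or 4, region_2748 without day 1, 2, 3 or 5 and region_3202 without any of days 1 to 5. Each of these 4 lost it without the low-GFP library of day 4 alone as well (edgeR's adjusted p up to 0.0895 over the single libraries left out).

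All 5 fold changes stayed below 0 under each scaling, with sizes that shifted. With the E. coli fragments as the scale they ran from -2.09 for region_3484 to -0.60 for region_2952, and none of the 5 was called by edgeR (adjusted p from 0.111 to 0.597). With DESeq2 size factors they ran from -2.73 for region_3484 to -1.05 for region_2952, and region_3484 alone was called. The E. coli fragments, which are bacterial sequence, themselves had a median of -2.04 under TMM.

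The 51 CtBP elements that were not called had log2 fold changes from -3.70 to 6.54 with standard errors of 0.521 to 2.97. Wide intervals therefore accompany many large values. Region_234 shows this. Its low-GFP CPM was 0, 136 and 476, its CD2+ CPM 0, 67.7 and 5234 and its CD2- CPM 0.219, 235 and 939. Low-GFP was higher than the control mean on 3 days and lower on 3. The fitted log2 fold change was 6.54 (standard error 2.97; edgeR's adjusted p = 0.122), although its mean was 195 CPM for low-GFP, 981 CPM for CD2+ and 315 CPM for CD2-, a log2 ratio of means of -1.73. The sign of this element was thus not settled. In experiment 1 its controls held at most 0.667 CPM, and in experiment 2 at least 135 CPM.

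Other large values that missed the threshold were -3.70 for region_3553 (edgeR adjusted p = 0.147) and -3.57 for region_486 (edgeR adjusted p = 0.351). Region_2772, the most abundant CtBP element of the CD2+ libraries in round 1, measured 1702, 9484 and 30882 CPM in low-GFP cells, 4074, 8951 and 15597 in CD2+ cells and 993, 8657 and 9497 in CD2- cells. Its groups overlapped over most of their range, and its log2 fold change was 0.55 (edgeR adjusted p = 0.490).

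Against CD2+ cells alone, the population from which low-GFP cells are drawn, 4 CtBP elements rose and 3 fell, against 12.3% and 8.38% of all elements. The median of the 63 was -1.05 and that of all elements -0.64. Those that rose were region_4530 (9.06, edgeR adjusted p = 0.000146), region_707 (4.57, edgeR adjusted p = 0.00197), region_2659 (6.99, edgeR adjusted p = 0.0129) and region_1692 (5.27, edgeR adjusted p = 0.0137). Region_1692 lost its call without day 1 or day 5. For region_4530 and region_2659, which would have failed the filter on control libraries alone, p is given as a description. Those that fell were region_3484 (-3.15, edgeR adjusted p = 0.0173), region_3509 (-2.67, edgeR adjusted p = 0.0203) and region_2952 (-1.49, edgeR adjusted p = 0.0423), and leaving out days 3 or 5 ended all 3 calls. Region_991 (4.55, edgeR adjusted p = 0.0789) and region_3770 (-3.67, edgeR adjusted p = 0.139) had large values that did not pass.

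Against CD2- cells, the non-mesodermal control, 6 rose and 2 fell, against 13.4% and 7.82% of all elements, with medians of -0.80 and -0.45. The 6 were the same 4 with region_4196 (2.21, edgeR adjusted p = 0.0375) and region_3084 (3.99, edgeR adjusted p = 0.0471). Region_4530 (8.38, edgeR adjusted p = 0.000246) and region_707 (4.76, edgeR adjusted p = 0.00181) kept the call without any single day. Region_2659 (6.71, edgeR adjusted p = 0.0153) lost it without day 2, and region_1692 (4.88, edgeR adjusted p = 0.0281) without any of days 1 to 5. Region_3484 (-2.87, edgeR adjusted p = 0.0299) and region_3202 (-3.30, edgeR adjusted p = 0.0435) fell, and with collection day as a block 4 CtBP elements did so, against 8.66% of all elements. Both comparisons share the low-GFP libraries, so they are not separate evidence. The p of region_4530 and region_2659 is again a description, for the same reason as against CD2+ cells.

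The CD2+ and CD2- sorts, made without selection on GFP, were compared with each other to see whether the inserts were recovered alike in mesoderm and elsewhere. None of the 63 CtBP elements was called by edgeR in either direction, an unadjusted p under 0.05 was reached by 0, and calls by DESeq2 numbered 0. By edgeR the background was 0.0% in each direction. Over all 358 elements, 6 had an unadjusted p under 0.05 by edgeR and DESeq2 called 3. The median log2 difference was 0.02 with a range of -2.68 to 2.17, and 48 of 63 lay within 1 log2 unit of 0. Across the 63 elements mean log2 CPM correlated at r = 0.915 between CD2+ and CD2- cells, against 0.706 between low-GFP and CD2+ cells and 0.678 between low-GFP and CD2- cells. These coefficients are across elements within the same pool and carry no test.

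The experiments were then taken apart. In experiment 1 of round 1, 3 of 63 tested CtBP elements rose and 2 fell (background 9.6% and 3.95%). In experiment 2, 2 of 62 rose and 0 fell (10.2% and 2.33%). Region_4530 rose in both (7.66, edgeR adjusted p = 0.0167, and 9.67, edgeR adjusted p = 0.00782), as did region_707 (3.71, edgeR adjusted p = 0.000343, and 5.42, edgeR adjusted p = 0.0202). In experiment 1 region_2659 also rose (7.57, edgeR adjusted p = 0.0352), and it was too scarce for the filter in experiment 2. Region_4530 and region_2659 would have failed the filter on the control libraries of the round alone. Their p is therefore a description, and the rise of region_4530 in both experiments is not separate support. Region_2748 fell in experiment 1 (-2.47, edgeR adjusted p = 0.0447).

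Region_1533 fell in experiment 1 (-3.84, edgeR adjusted p = 0.0178) and not over both experiments (-2.04, edgeR adjusted p = 0.152). On days 1 to 3 its low-GFP CPM was 562, 314 and 202, against 4802, 2243 and 7805 in CD2+ and 5006, 2342 and 2439 in CD2- cells. On day 6 its low-GFP value of 695 lay above the CD2+ value of 2.64 and below the CD2- value of 2557. So the groups were apart in experiment 1 and overlapped in experiment 2.

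Across the 59 CtBP elements tested in both experiments of round 1, 46 had the same sign (78.0%), 11 above 0 and 35 below. Over all 319 elements tested in both it was 80.6%. Log2 fold changes of the 59 correlated at r = 0.704 (rho = 0.638), against 0.719 (rho = 0.663) over all 319, as a description across elements. A test of the difference between experiments called 0 CtBP elements (background 0.0%). For it, 1 had an unadjusted p under 0.05, region_234 (-11.02, edgeR adjusted p = 0.356). DESeq2 called 1 CtBP element, beside 11 of all 358.

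In round 2, 1 of 21 tested CtBP elements rose and 0 fell, against 9.03% and 5.16% of 155 elements. The median was -0.46 against -0.20 over all elements. It was -0.68 over the 12 E. coli fragments, of which 0 rose and 4 fell, and -0.28 over 17 Groucho-region elements, of which 0 were called. With the E. coli fragments as the scale, the medians were 0.36 for CtBP elements and 0.60 for all, and 3 CtBP elements were called higher, against 18.1% of all 155 elements.

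Region_1246 was the CtBP element that rose in round 2. It measured 15250, 25241 and 28231 CPM in low-GFP cells against 3274, 8042 and 12693 in CD2+ cells. The groups did not overlap, and it was higher on 6 of 6 days. Its log2 fold change was 1.38 (standard error 0.32; edgeR's adjusted p = 0.0131). Every low-GFP library lay above every CD2+ library for this 1 CtBP element, against 6.45% of all elements, and the reverse held for 0 CtBP elements and 3.23% of all. Region_1246 was the most abundant CtBP element in 5 of the 6 low-GFP libraries, with region_3852 first on day 1. Leaving out day 2, 5 or 6 ended its call (highest adjusted p from edgeR, 0.0847) and with total counts as the scale (0.85, edgeR adjusted p = 0.10).

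Taken by experiment, 0 of 22 CtBP elements rose and 0 fell in experiment 1 of round 2 (background 4.4% and 0.629%). In experiment 2, 1 of 21 rose and 0 fell (5.19% and 0.0%). The 1 was region_1246 (1.72, edgeR adjusted p = 0.0365), whose value in experiment 1 was 1.21 (edgeR adjusted p = 0.239). The difference between experiments called 0 CtBP elements by edgeR (background 0.0%), with 0 at an unadjusted p under 0.05 and 0 by DESeq2. Of 20 elements tested in both, 15 had the same sign (75%), against 77.4% of 146.

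The most abundant CtBP element in the CD2+ libraries of round 2 was region_3799. It measured 11249, 12585 and 17239 CPM in low-GFP cells and 13542, 18573 and 22443 in CD2+ cells. It was lower on 6 of 6 days by a small amount that did not pass (-0.46, edgeR adjusted p = 0.153), and the groups overlapped. Region_3346 measured 4203, 6691 and 8548 CPM against 7258, 11297 and 12706, also lower on 6 of 6 days (-0.72, edgeR adjusted p = 0.147). Region_788 measured 4431, 6707 and 12635 CPM against 3827, 9607 and 17174 (-0.36, edgeR adjusted p = 0.525), with groups that overlapped widely.

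Scarcer elements of round 2 had larger values that did not pass. Region_1790 measured 1.88, 2659 and 5623 CPM in low-GFP cells against 43.3, 362 and 554 in CD2+ cells (2.84, edgeR adjusted p = 0.181). It was higher on 4 of 6 days. Region_4944 (-2.26, edgeR adjusted p = 0.455) and region_63 (1.61, edgeR adjusted p = 0.458) each moved both ways over the days.

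Only 5 CtBP elements were tested in both rounds, region_1246, region_3049, region_3084, region_3799 and region_486. Of the 12 called in round 1 the second round listed 2. Region_3049 measured 0.870, 1471 and 9930 CPM in low-GFP cells of round 2 and 0, 974 and 5913 in CD2+ cells, and its log2 fold change there was 0.94 (edgeR adjusted p = 0.455). Region_3084 measured 1.88, 1106 and 2511 CPM against 4.25, 618 and 1115, with 0.69 (edgeR adjusted p = 0.777). In both the groups overlapped. The round 1 calls were against both controls and round 2 has CD2+ cells only. Against CD2+ alone neither had passed in round 1, with 1.91 for region_3049 (edgeR adjusted p = 0.152) and 3.32 for region_3084 (edgeR adjusted p = 0.0853). On days 4 to 6 of round 2 region_3049 had at most 9 counts in a library, so its value there rests on days 1 to 3. Region_1246, the element called in round 2, was rarer in round 1 and had a value of -0.96 against CD2+ there (edgeR adjusted p = 0.793).

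Of the 5, 4 had the same sign against CD2+ cells in both rounds by the edgeR fits, all but region_1246. The mean of the daily log2 fold changes gave other signs, but it was not against CD2+ alone in both rounds. In round 1 it was against the average of the CD2+ and CD2- libraries of the day, and in round 2 against CD2+. By it, region_3084 (3.08 in round 1, -0.064 in round 2) and region_3799 (0.39 and -0.47) changed sign. Region_1246 (0.29 and 1.49), region_3049 and region_486 kept theirs. An exact two-sided permutation test compared these daily log2 fold changes between rounds. It gave 0 with an adjusted p under 0.05 and 1 with an unadjusted p under 0.05. The controls differ between the rounds in this test, so a difference between rounds cannot be told apart from one between controls. The smallest adjusted p over the 5 was 0.157, and some of the daily ratios tested, such as those of region_3049 on days 4 to 6 of round 2, are of a few counts. The smallest p this test can give with 6 days against 6 is 0.00216.

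The authors' deposited table for each round and experiment gives their own fold change and adjusted p. At an adjusted p under 0.05, the authors' deposited table for experiment 1 of round 1 has 6 of 59 listed CtBP elements higher and 5 lower, beside 17.8% and 5.44% of all elements listed. The authors' deposited table for experiment 2 has 5 of 59 higher and 1 lower, beside 17.9% and 0.852%. In both authors' deposited tables the same 3 were higher, region_3049 (4.15-fold and 4.53-fold), region_4530 (169-fold and 432-fold) and region_707 (15.3-fold and 47.0-fold), and 0 were lower in both. The share of all elements higher or lower in both is not given here, so these counts show nothing particular to CtBP elements. Region_4530 had 58 counts in all over the 12 control libraries. In the fits above it passed the filter only through the low-GFP libraries. The other elements higher in 1 authors' deposited table were region_1692, region_234, region_2659, region_3084 and region_4196. Region_234 is listed there at 762-fold in experiment 1, where its controls were near 0. Lower in 1 authors' deposited table were region_1533, region_1582, region_3202, region_3439, region_3484 and region_3553. In round 2 the authors' deposited table for experiment 1 has 0 of 19 CtBP elements higher and 0 lower (11.1% and 1.31% of all), and that for experiment 2 has 1 of 20 higher, region_1246 at 3.24-fold, and 0 lower (16.1% and 0.671%).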

How the data were processed

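Inserts recovered from sorted cells were measured in 30 libraries. The authors deposited, per library, counts of mapped reads by barcoded element, in separate tables for read 1 and read 2. They also deposited comparison tables with a ratio (fold change), its log2 value and p-values, raw and adjusted, which were used only where named. DESeq was used per the submitters' processing notes. Which version, which mapper and which reference were used is not given in the sources used here.

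Read 1 counts were used and empty cells were read as 0. Read 1 and read 2 correlated at 0.995 or more over the CtBP elements of a library. Elements were filtered with filterByExpr (minimum count 10) and tested over the whole table with edgeR 4.0.16 in R 4.3.3, with TMM scaling, terms for population and experiment, and adjusted p-values (Benjamini-Hochberg) called under 0.05. The standard error is the log2 fold change divided by the square root of the F value and restates the test. DESeq2 1.42.0, other scalings, filters, reads, a block for collection day and left-out days or libraries were alternatives. Leaving out single libraries and the exact permutation test between rounds were chosen after seeing the data. The scripts were tested on simulated data.

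Rounds and experiments follow the dates in the labels and the names of the authors' comparison tables. Replicates are collection days, each with embryos of its own, and the dates pair the populations of a day. Within experiments, deviations from the population means correlated above 0.1 between libraries of a day in 17 of 18 pairs in round 1 (median 0.223, lowest 0.0954) and 6 of 6 in round 2 (median 0.476, lowest 0.101).

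Named elements are those called in any comparison, the 3 largest uncalled fold changes of each low-GFP comparison, the 3 most abundant in CD2+ cells of each round, those tested in both rounds and those called in 1 experiment. Untested elements with counts, and region_1582, region_3439, region_55 and the round 1 elements that fail the filter on controls alone, were named after their values were seen. The members, lists and tests were chosen with earlier results of these data known.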

Additional observations from a re-analysis of the deposited data

Results flagged for a closer look

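Among the called CtBP elements, each group of 6 libraries was checked for a library far from the other 5 (Dixon's ratio on log2 CPM above 0.625). Of 45 groups checked, 11 held such a library (24.4%). Chance gives about 1 in 20 for independent, normally spread values, but these groups share libraries, and over all tested elements it was 263 of 1384 groups (19%). The cause was not tested.

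In round 1, region_2748 fell to 79.6 CPM in the CD2+ library of day 4, with 3974 to 10140 on the other days, and to 472 CPM in the CD2- library of the same day, with 5460 to 10250 on the others. Region_3084 was at 0.142 CPM in the CD2- library of day 4 (others 33.0 to 146) and at 284 CPM in the CD2+ library of day 5 (others 62.1 to 106).

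On day 6 of round 1, 4 control values stood apart. Region_707 measured 544 CPM in CD2+ (others 2441 to 5987) and 3.28 CPM in CD2- cells (others 1457 to 5361). Region_3049 measured 2.02 CPM in CD2- cells (others 811 to 9220), and region_3202 measured 5.02 CPM in CD2+ cells (others 1123 to 4332). The calls of region_3049, region_3202 and region_707 against both controls did not end when day 6 was left out.

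Region_4196 measured 2068 CPM in the CD2+ library of day 2 (others 5955 to 9481) and 287 CPM in the CD2- library of day 1 (others 3666 to 10620). In round 2, region_3084 measured 4.25 CPM in the CD2+ library of day 6 (others 222 to 1115). All but 1 of the 11 were low values, and all were in control libraries.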

How the results depend on the processing

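Counts of CtBP elements called moved in both directions. Against both controls in round 1 (7 higher, 5 lower), lower calls were 1 with DESeq2 size factors, 8 with total counts and 0 with E. coli scaling. DESeq2's Wald test gave 8. Over all elements the lower shares were 6.42%, 15.6%, 1.12% and 12.6% in that order, against 10.1% in the main fit. Experiment 1 alone gave 3 higher and 2 lower (9.6% and 3.95% of all). Experiment 2 alone gave 2 and 0 (10.2% and 2.33%). Against CD2+ (4 and 3), lower calls were 5 with total counts (13.4% of all), 0 with E. coli scaling (1.40%) and 5 with DESeq2 (10.6%). DESeq2 called 9 higher (19.3% of all). The experiments alone gave 1 higher and 1 lower, then 0 and 0. Against CD2- (6 and 2), lower calls were 1 with DESeq2 size factors (4.75% of all), 7 with total counts (12.8%) and 0 with E. coli scaling (0.559%). They were 6 with DESeq2 (8.94%) and 4 with the replicate block (collection day, 8.66%). No experiment term gave 1, and both reads summed gave 4. The experiments alone gave 1 higher, then 0, and 0 lower in each. In round 2 (1 and 0), higher calls were 0 with total counts (5.16% of all), 3 with E. coli scaling (18.1%) and 2 with DESeq2 (11.6%). Experiment 1 alone gave 0 higher (4.4% of all), and total counts gave 2 lower (11.0%). DESeq2 called 1 CtBP element for the difference between experiments in round 1, beside 11 of all 358. With the replicate block the counts against both controls were 5 higher and 5 lower (15.4% and 9.22% of all). Without the filter on low counts they were 8 and 5 (16.6% and 8.65%). The cause of these shifts was not tested. A count without a share over all elements beside it, here and below, shows no shift particular to CtBP elements.

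Leaving out 1 day gave 5 to 7 higher and 1 to 6 lower against both controls, 3 to 5 and 0 to 3 against CD2+, 2 to 6 and 0 to 3 against CD2-, and 0 to 3 higher in round 2. Leaving out 1 library gave 5 to 7 and 2 to 6, 4 to 5 and 1 to 4, 3 to 6 and 1 to 4, and in round 2 1 to 4 higher and 0 to 1 lower. CD2+ against CD2- stayed at 0 calls throughout. Over 94 fold changes of single elements, 1388 alternative values kept their side of the threshold, 146 (25 results) lost it, 44 (21 results) gained it and 0 reversed a called sign. Each element had 1 barcode, counts of cells sorted are not known here, and scarce elements near 3 counts have no usable ratio between days.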
